A study of Lactuca sativa with 6 samples.

Results

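The genes described here are those of the circadian clock in young lettuce leaves. They were found by their closest Swiss-Prot protein, as every gene of the deposited table described as a two-component response regulator-like protein, GIGANTEA, transcription factor LUX or REVEILLE, which gave 10 of 2579 genes. They comprise 5 pseudo-response regulators, 2 *GIGANTEA* (*GI*) genes, 2 *LUX* genes and 1 *REVEILLE 8* (*RVE8*) gene. Names are those of the closest protein, mostly of *Arabidopsis* or rice, and where 2 genes carry the same name they are told apart by their lettuce gene IDs.

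Gene expression was measured by RNA-seq in young leaves of 1-month-old *LsAP2*-OE plants (3 libraries) and WT plants (3 libraries). *LsAP2*-OE plants carry the coding sequence of the lettuce gene *LsAP2*, a transcriptional repressor of the APETALA2 family, under the cauliflower mosaic virus 35S promoter, which drives expression in most tissues, and the cultivar used in the study is S39. The sources used here do not say which transgenic line or lines were sequenced, so an effect of the transgene cannot be told apart from one of a particular line. Nor do they give the hour of the day at which leaves were collected, and for genes that cycle over the day a difference in that hour, if there was one, could not be told apart from the genotype.

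The plant clock is a loop of transcription factors that act on each other in turn over the day. In *Arabidopsis*, REVEILLE factors act from the morning and activate genes of the evening, the pseudo-response regulators repress in sequence from the morning to the evening, and LUX is part of an evening complex that represses in the early night. GIGANTEA is a large protein of the late day that links the clock to flowering time and to protein breakdown. In leaves the clock is known to time photosynthesis, growth, responses to cold and the perception of day length. Bulk libraries were made from whole leaves, so fewer cells of a type and less RNA per cell cannot be told apart.

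For each gene and library the deposited table holds 1 normalized expression value, without counts and without naming the kind of normalization, so that depth is unknown and values are not compared between genes. It holds only genes that the authors had already called between these same libraries, so a clock gene that did not change cannot appear in it, and no p-value from it is independent evidence of a difference. The values sum to 103060 to 108937 in *LsAP2*-OE libraries and to 97790 to 112997 in WT libraries. *LsAP2* itself (Lsat_1_v5_gn_3_89681), the check of the labels, was 7.74-fold higher in *LsAP2*-OE leaves, with values of 209 to 224 in *LsAP2*-OE libraries and 25.3 to 30.5 in WT libraries. The native transcript and the transgene are not separated in this value. Fold changes and tests of single genes come from limma on the scale log2(value + 0.1), with Benjamini-Hochberg adjustment over all 2579 genes and a call at an adjusted p below 0.01. On this scale the change of genes with low values is understated.

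The clock genes of the table were divided in direction. In *LsAP2*-OE leaves 6 of 10 were lower, 3 were higher and 1 did not pass. The lower genes were the pseudo-response regulators *PRR37*, *PRR73* and *APRR5*, *RVE8* and both *GI* genes. The higher genes were both *PRR1* genes, described after the rice counterpart of *TIMING OF CAB EXPRESSION 1* (*TOC1*), and 1 of the 2 *LUX* genes. Of all 2579 genes, 59.1% were called higher and 39.6% lower, 98.7% in all, so the share of clock genes called at all is set by the table. The median log2 fold change was −1.37 over the 10 clock genes and 1.03 over all genes of the table, and the median absolute log2 fold change was 1.81 and 1.44. The authors' call asked for a fold change of at least 2, so a median over both directions mostly follows which direction holds more genes. Within a direction, the median was −1.49 over all genes of the table with a negative log2 fold change and 1.38 over those with a positive one. The *LsAP2*-OE and WT values did not overlap for any of the 10 genes, as was so for 99.4% of the table. With all libraries centred on their median, they did not overlap for 9 of the 10. The share of all genes after centring is not given here, so this count cannot be set against it.

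**Figure D1:**
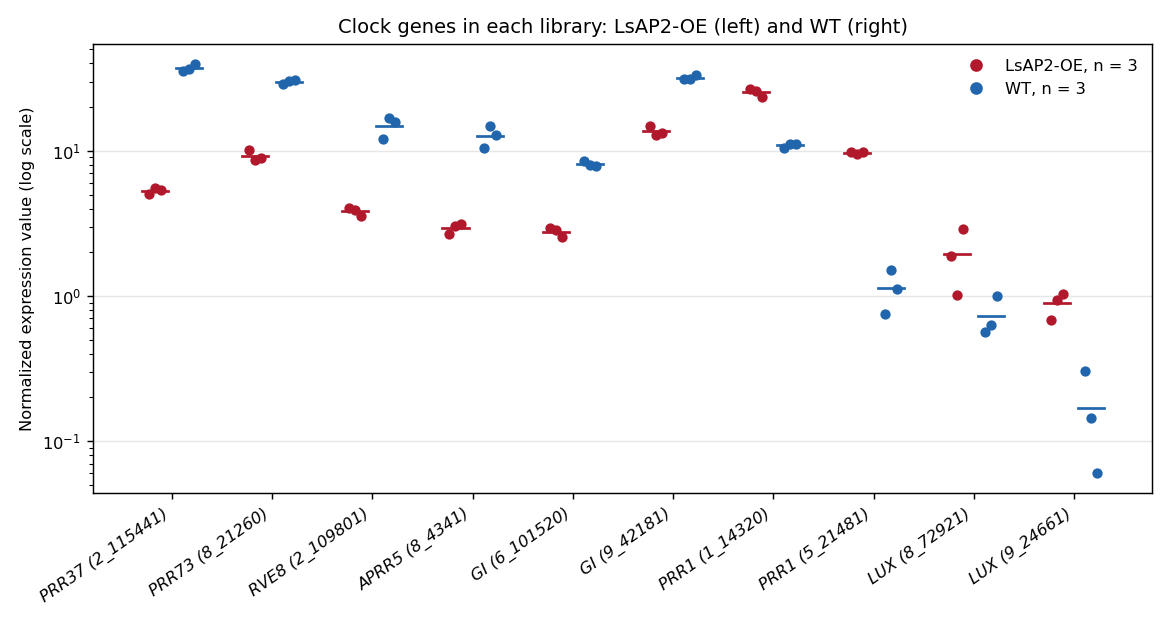
Normalized expression value (log scale) of each clock gene in each library, with *LsAP2*-OE to the left of WT; dots are libraries (n = 3 per group), short bars are means, and the numbers in brackets end the lettuce gene ID. Red dots lie below blue dots for the 6 genes from *PRR37* to the second *GI* gene and above them for the *PRR1* and *LUX* genes.

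Pseudo-response regulators carry a domain that resembles the receiver of two-component response regulators but lack the residue that is phosphorylated there. *PRR37* (Lsat_1_v5_gn_2_115441), whose rice counterpart delays heading in long days, had the largest fall of the clock genes. Its values were 5.01, 5.54 and 5.39 in *LsAP2*-OE libraries, against 35.4, 36.9 and 39.4 in WT libraries. The lowest WT value was 6.39 times the highest *LsAP2*-OE value. The mean was 5.31 ± 0.273 in *LsAP2*-OE leaves and 37.2 ± 2.01 in WT leaves (SD, n = 3 each), with a log2 fold change of −2.79 ± 0.080 (SE, limma adjusted p = 3.35e-08). Among the 1031 genes with a negative fold change it ranked 91 by size.

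*PRR73* (Lsat_1_v5_gn_8_21260), the rice relative of *PRR37*, had values of 10.2, 8.58 and 8.85 in *LsAP2*-OE libraries, against 29.0, 30.2 and 30.6 in WT libraries. It fell less, by 1.69 on the log2 scale (SE 0.085, limma adjusted p = 3.93e-07). *APRR5* (Lsat_1_v5_gn_8_4341), which in *Arabidopsis* peaks in the afternoon and represses the morning genes, had values of 2.66, 3.03 and 3.15 in *LsAP2*-OE libraries, against 10.4, 14.7 and 12.9 in WT libraries. It fell by 2.06 on the log2 scale (SE 0.147, limma adjusted p = 2.37e-06). The WT libraries were further apart for *APRR5* than for *PRR37* or *PRR73*, with a coefficient of variation of 17.2%, against 5.41% and 2.75%.

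The *PRR1* genes went the other way. In *Arabidopsis* the counterpart, *TOC1*, is expressed in the evening and represses many other clock genes. *PRR1* (Lsat_1_v5_gn_1_14320) had values of 26.8, 26.0 and 23.6 in *LsAP2*-OE libraries, against 10.5, 11.1 and 11.2 in WT libraries. This was 2.32-fold higher by the means, with a log2 fold change of 1.21 ± 0.078 (SE, limma adjusted p = 1.31e-06). The other *PRR1* gene (Lsat_1_v5_gn_5_21481) had values of 9.77, 9.56 and 9.87 in *LsAP2*-OE libraries, against 0.746, 1.52 and 1.12 in WT libraries. The *LsAP2*-OE libraries were close together, with a coefficient of variation of 1.61%, while the WT libraries varied by 34.3%. It was 8.62-fold higher by the means, with a log2 fold change of 3.05 ± 0.226 (SE, limma adjusted p = 2.95e-06), which was 2.35 with a pseudocount of 1 in place of 0.1. By fold change it was the 132nd of the 1548 genes with a positive one. The copies, like those of *GI* and *LUX*, are similar genes that may share reads, so the division of reads between them is uncertain.

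Both *GI* genes fell. *GI* (Lsat_1_v5_gn_9_42181) had values of 14.9, 12.8 and 13.3 in *LsAP2*-OE libraries, against 31.1, 31.3 and 33.1 in WT libraries, and *GI* (Lsat_1_v5_gn_6_101520) had values of 2.93, 2.86 and 2.54 in *LsAP2*-OE libraries, against 8.44, 7.99 and 7.92 in WT libraries. In both, the libraries of a group lay within a factor of 1.16 of each other. The log2 fold changes were −1.21 (SE 0.078, limma adjusted p = 1.28e-06) and −1.52 (SE 0.114, limma adjusted p = 3.14e-06). The first of these is the smallest fall among the clock genes and was the 860th by size of the 1031 negative fold changes.

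*RVE8* (Lsat_1_v5_gn_2_109801) belongs to the MYB-like factors of the clock and in *Arabidopsis* activates *PRR5*, *TOC1* and *LUX*, among others. Its values were 4.02, 3.94 and 3.55 in *LsAP2*-OE libraries, against 12.0, 16.9 and 15.9 in WT libraries. The mean was 3.83 ± 0.250 in *LsAP2*-OE leaves and 14.9 ± 2.57 in WT leaves (SD, n = 3 each), with a log2 fold change of −1.92 ± 0.140 (SE, limma adjusted p = 2.75e-06). Of the targets just named, the one described as *APRR5* was lower with it and those described as *PRR1* were higher. Those described as *LUX* had log2 fold changes of 1.96, which passed, and 1.22, which did not. Whether other clock genes of the table are targets too, such as both *GI* genes, which were lower, is left out of this comparison. It therefore gives no balance of targets that went with *RVE8* or against it.

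*LUX* encodes a GARP-type DNA-binding protein and had low values with a wide spread. *LUX* (Lsat_1_v5_gn_9_24661) had values of 0.682, 0.945 and 1.04 in *LsAP2*-OE libraries, against 0.302, 0.144 and 0.0608 in WT libraries. It rose by 1.96 on the log2 scale (SE 0.345, limma adjusted p = 5.52e-04). The WT values are near the pseudocount, and the size of the change rests on it, since the log2 fold change was 0.69 with a pseudocount of 1 and 2.56 with one of 0.01. *LUX* (Lsat_1_v5_gn_8_72921) had values of 1.87, 1.02 and 2.90 in *LsAP2*-OE libraries, against 0.560, 0.631 and 0.999 in WT libraries. The lowest *LsAP2*-OE value, of replicate 2, was 1.02 times the highest WT value. This gene did not pass, with a log2 fold change of 1.22 (95% interval 0.36 to 2.07, adjusted p = 0.0113 from limma). Without *LsAP2*-OE replicate 2 it had a log2 fold change of 1.59 and a limma adjusted p of 0.0018 (range over all alternatives 0.0018 to 0.0395), and the number of higher clock genes was 4.

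**Figure D2:**
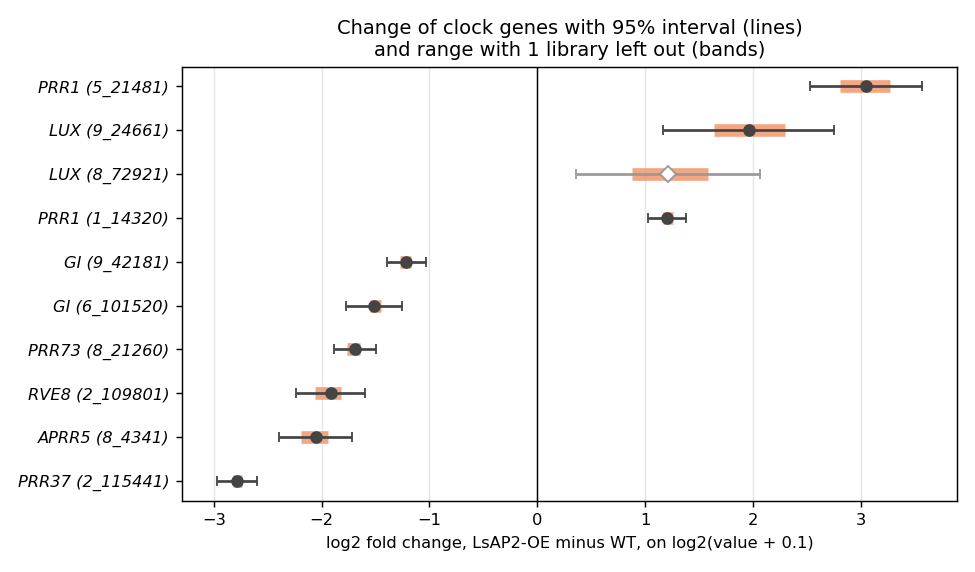
Log2 fold change of each clock gene, *LsAP2*-OE minus WT on the scale log2(value + 0.1), with its 95% interval from limma (lines) and the range when 1 of the 6 libraries was left out (bands); filled circles passed an adjusted p below 0.01 and the open diamond did not. The 6 negative changes run from −2.79 to −1.21 and the 4 positive ones from 1.21 to 3.05, with the widest intervals for the *LUX* genes.

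By the phase assigned to them after *Arabidopsis*, 3 members belong to the morning and midday (*RVE8*, *PRR37* and *PRR73*), and all 3 were lower. *PRR37* and *PRR73* are rice names, so their placing in this class is an assumption. The other 7 belong to the afternoon and evening, and of these 3 were lower (*APRR5* and both *GI* genes), 3 were higher and 1 did not pass. The mean log2 value over the morning and midday genes was 2.50 to 2.59 in *LsAP2*-OE libraries and 4.54 to 4.75 in WT libraries. Over the 7 afternoon and evening genes, which went both ways, it was 2.16 to 2.36 in *LsAP2*-OE libraries and 1.82 to 1.94 in WT libraries. This difference rests on 1 gene, since without the *PRR1* gene Lsat_1_v5_gn_5_21481 the mean was 1.97 to 2.20 in *LsAP2*-OE libraries and 2.13 to 2.16 in WT libraries, and the groups overlapped. Phases of these lettuce genes were not measured here. WT replicate 1 was the lowest of the WT libraries for 8 of the 10 genes, which include genes of both directions. The share of all genes lowest there is not given here, so this count cannot be set against it. For some the difference was small, as for *PRR73*, whose highest WT value was 1.05 times the lowest. Without WT replicate 1, each of the 9 called genes was still called, in the same direction. Of all 2579 genes, 1493 were then called higher and 1007 lower.

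A ratio of 2 values within a library does not depend on the scaling of that library. The log2 ratios tested here were taken after adding 0.1, so at low values, as for *LUX*, they depend on it to some degree. They were compared between the groups for 12 pairs, all pairs of the pseudo-response regulators and the pairs of *GI* and *LUX*. In 10 of 12 pairs the ratios of *LsAP2*-OE and WT libraries did not overlap. The table holds only genes already called between these libraries. A ratio of a gene that fell to a *PRR1* gene that rose could therefore hardly overlap. The share over other pairs of genes is not given here, so the count describes these pairs only. An exact permutation test, two-sided, of 3 libraries against 3 cannot give a p below 0.1, which these 10 pairs had (0.12 adjusted over the 12 pairs). None of them can therefore pass 0.05 by this test.

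The ratio of *PRR73* to *PRR1* (Lsat_1_v5_gn_1_14320) showed the opposite directions with the least spread in WT. It was 0.381, 0.330 and 0.376 in *LsAP2*-OE libraries, against 2.75, 2.71 and 2.73 in WT libraries. On the log2 scale this is a difference of −2.90. Also genes with the same direction moved by unequal amounts. The ratio of *PRR37* to *PRR73* was 0.491, 0.646 and 0.609 in *LsAP2*-OE libraries, against 1.22, 1.22 and 1.29 in WT libraries, a difference of −1.09 on the log2 scale. The ratio of the *PRR1* gene with the smaller rise (Lsat_1_v5_gn_1_14320) to the other was 2.74, 2.72 and 2.39 in *LsAP2*-OE libraries, against 14.1, 7.32 and 10.0 in WT libraries, a difference of −1.84 on the log2 scale. For *GI* the ratio (Lsat_1_v5_gn_9_42181 to Lsat_1_v5_gn_6_101520) differed by 0.30 on the log2 scale, with 5.07, 4.49 and 5.25 in *LsAP2*-OE libraries, against 3.68, 3.92 and 4.17 in WT libraries. The 2 pairs that overlapped were *PRR73* to *APRR5*, with a log2 difference of 0.36 (exact permutation p = 0.3), and the pair of *LUX* genes, with one of −0.74 (exact permutation p = 0.4). For copies of the same name, the division of reads between them is uncertain, which limits the ratios within *PRR1*, *GI* and *LUX*. In WT libraries the *PRR1* ratio also divides by low values, 0.746 to 1.52.

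**Figure D3:**
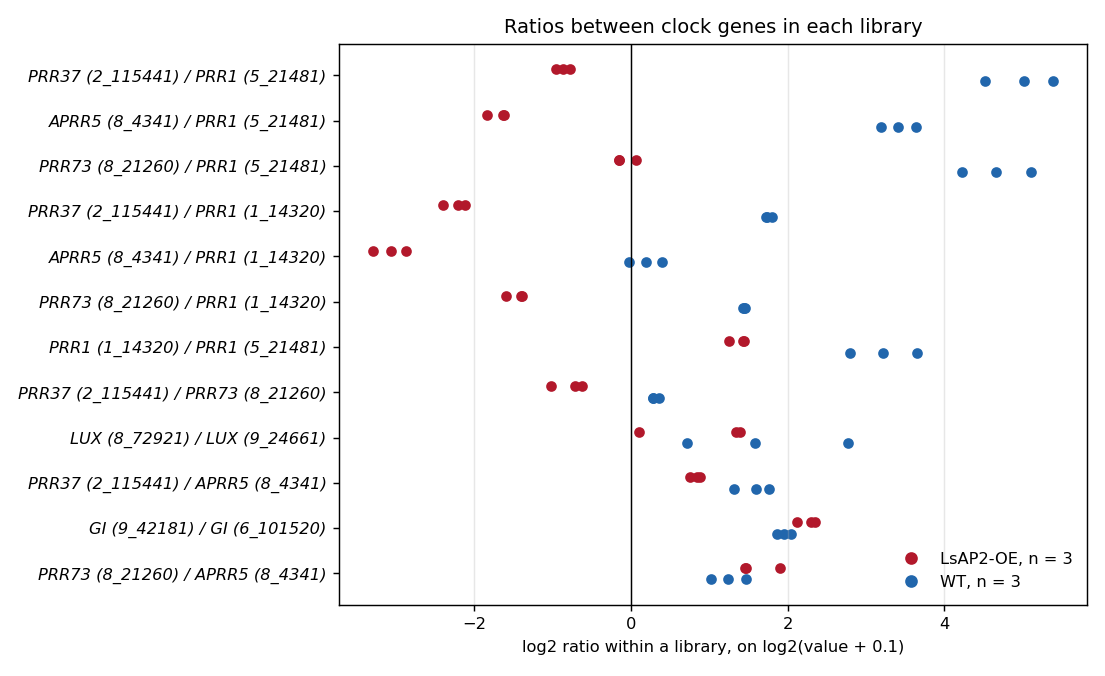
Log2 ratio between 2 clock genes within each library, on log2(value + 0.1), for the 12 pairs; red dots are *LsAP2*-OE libraries, blue dots are WT libraries (n = 3 each), and pairs are ordered by the difference between the group means. The 6 pairs of *PRR37*, *PRR73* or *APRR5* with a *PRR1* gene are at the top, and the dots overlap only for *PRR73* to *APRR5* and for the pair of *LUX* genes.

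Genes downstream of the clock and in the perception of day length were found by words in their descriptions. The list of photoperiod and clock output held 11 genes, 8 lower and 3 higher, with a median log2 fold change of −2.14. Of all genes of the table, 39.6% were called lower and 59.1% higher. All 3 cyclic Dof factors fell, by log2 fold changes between −2.91 and −1.44. In *Arabidopsis* these factors repress *CONSTANS* and are removed by GIGANTEA and its partner. Of 8 *CONSTANS-LIKE* genes, 5 were lower and 3 higher. A *CONSTANS-LIKE 4* gene (Lsat_1_v5_gn_3_41740) had values of 0.517, 0.638 and 0.228 in *LsAP2*-OE libraries, against 10.5, 8.69 and 10.5 in WT libraries (log2 fold change −4.23, adjusted p = 2.09e-06 from limma), a change of −2.91 with a pseudocount of 1. Another *CONSTANS-LIKE 4* gene (Lsat_1_v5_gn_8_131201) was listed at 0 in *LsAP2*-OE replicate 2 and at 0.126 and 0.131 in the other *LsAP2*-OE libraries, against 3.33, 3.41 and 4.01 in WT libraries. *CONSTANS-LIKE 16* (Lsat_1_v5_gn_3_59241) rose, with values of 73.4, 74.8 and 70.1 in *LsAP2*-OE libraries, against 22.7, 22.2 and 23.0 in WT libraries (log2 fold change 1.68, adjusted p = 7.81e-08 from limma). A *CONSTANS-LIKE 5* gene (Lsat_1_v5_gn_2_135961) also rose, by 1.26 on the log2 scale. No gene of the table was described as ADAGIO, EARLY FLOWERING, LATE ELONGATED HYPOCOTYL or CIRCADIAN CLOCK ASSOCIATED 1, and genes outside the table were not analysed here.

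The list of light signaling held 13 genes, 7 higher and 6 lower, with a median log2 fold change of 0.91. This division is near that of the whole table, where 59.1% of genes were called higher and 39.6% lower. All 4 *PHYTOCHROME KINASE SUBSTRATE* genes, whose proteins bind photoreceptors and act in bending and flattening of leaves, rose, with log2 fold changes of 0.91 to 2.44. Of 5 B-box zinc finger genes, 3 fell and 2 rose. Both genes described as *B-BOX 32*, in *Arabidopsis* a clock-controlled gene of the early morning, fell by 3.45 and 2.76 on the log2 scale (Lsat_1_v5_gn_1_39541 and Lsat_1_v5_gn_4_69761), or by 2.13 and 1.94 with a pseudocount of 1. *B-BOX 19* (Lsat_1_v5_gn_8_128741) had values of 5.28, 4.01 and 4.81 in *LsAP2*-OE libraries, against 12.0, 10.9 and 12.2 in WT libraries. *PHYTOCHROME KINASE SUBSTRATE 2* (Lsat_1_v5_gn_8_53241) averaged 20.3 ± 1.32 in *LsAP2*-OE leaves and 10.7 ± 0.238 in WT leaves (SD, n = 3 each), a change of less than 2-fold.

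Genes whose daily rhythm is known from *Arabidopsis* to be set by the clock were also in the table. Of 5 *DREB1* genes, which pseudo-response regulators repress in *Arabidopsis* and which act in cold tolerance, 4 were lower and 1 was higher, with log2 fold changes of −5.08 to 1.58. The lowest, that of *DREB1D* (Lsat_1_v5_gn_9_54680), was −2.91 with a pseudocount of 1 and −5.87 with one of 0.01. All 8 chlorophyll a-b binding protein genes, the outputs after which *TOC1* was named, were lower, with log2 fold changes of −1.60 to −1.13. The 5 two-component response regulators outside the clock, relatives in cytokinin signaling that share the receiver domain, were all higher, with log2 fold changes of 0.94 to 1.62. Of the 5 pseudo-response regulators, 3 were lower. These counts, like those of the *DREB1* and antenna genes, stand beside 59.1% of all genes called higher and 39.6% called lower.

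**Figure D4:**
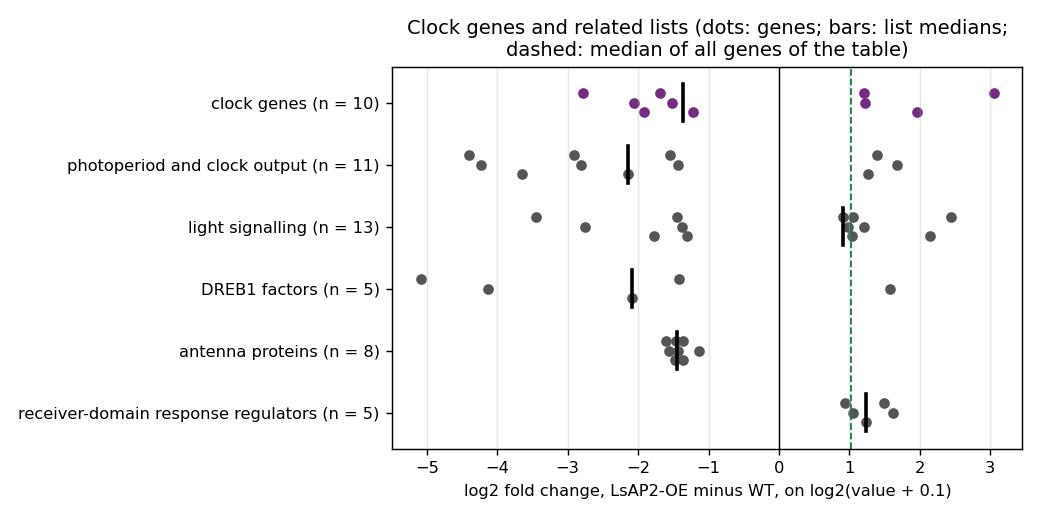
Log2 fold change (*LsAP2*-OE minus WT, on log2(value + 0.1)) of the 10 clock genes and of the genes of the other lists; dots are genes, black bars are list medians and the dashed line is the median of all 2579 genes of the table, 1.03. The median lies below 0 for the clock genes, the photoperiod list, the *DREB1* genes and the antenna proteins. A median over both directions mostly follows which direction holds more genes.

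By a search over 1939 other described genes, each clock gene was matched with the gene whose log2 values, relative to the WT mean, differed least from its own over the 6 libraries (root mean square difference). The closest match was that of *PRR1* (Lsat_1_v5_gn_1_14320) with a phosphomethylethanolamine N-methyltransferase gene (Lsat_1_v5_gn_2_11881), at 0.0383. Next was that of *GI* (Lsat_1_v5_gn_9_42181) with a gene described as *APETALA 2* other than *LsAP2* (Lsat_1_v5_gn_2_85920), at 0.0415. This gene had a mean of 14.4 ± 0.483 in *LsAP2*-OE leaves and 33.0 ± 0.979 in WT leaves (SD, n = 3 each). The other *GI* gene was closest to a homolog of 1-aminocyclopropane-1-carboxylate oxidase (Lsat_1_v5_gn_0_19261), at 0.0603. By its construction the measure takes in the difference between the groups, and over the members the smallest difference reached 0.238 for the *LUX* gene that did not pass. A closest gene is always found, and how many others lay nearly as close is not given here. No link between matched genes can therefore be drawn from this search.

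The table also held marker genes of leaf tissues, all of them called, in a table where 98.7% of genes were, 59.1% as higher and 39.6% as lower. Of the 14 mesophyll markers, 6 were higher, all of them Rubisco small chain genes, and 8, the antenna genes above, were lower. The summed value of the 6 Rubisco genes was 16951 to 19691 in *LsAP2*-OE libraries and 6074 to 6512 in WT libraries, and that of the 8 antenna genes was 1001 to 1166 in *LsAP2*-OE libraries and 2615 to 3258 in WT libraries. The sum over all 14, 18000 to 20858 in *LsAP2*-OE libraries and 8689 to 9770 in WT libraries, is therefore mostly that of the Rubisco genes. Of 14 xylem markers 13 were higher, all of them laccase genes, and 1, *ACAULIS5*, was lower (summed value 74.1 to 74.9 in *LsAP2*-OE and 47.3 to 54.3 in WT). *ACAULIS5* averaged 10.4 in *LsAP2*-OE leaves and 23.9 in WT leaves. Of 2 phloem markers *SUC2* was higher and *CLE25* lower (summed value 127 to 137 in *LsAP2*-OE and 67.7 to 78.2 in WT, most of it that of *SUC2*). The 1 guard cell marker was higher (4.32 to 4.86 in *LsAP2*-OE and 1.75 to 2.19 in WT). All 5 markers of senescing leaves were higher (204 to 221 in *LsAP2*-OE and 88.1 to 106 in WT). They are *YLS9* genes, a pheophytinase gene and a senescence-associated carboxylesterase gene. Most of their sum is that of the *YLS9* gene Lsat_1_v5_gn_2_56001 (173 to 193 in *LsAP2*-OE and 73.4 to 91.9 in WT). None of these markers was listed at 0 in any library. Their part in the values of the clock genes was not tested.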

How the data were processed

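RNA-seq libraries of young leaves, 3 of *LsAP2*-OE and 3 of WT, were analysed. For the deposited table, clean reads had been mapped by the authors with HISAT2 to a lettuce reference genome on BMKCloud, and DESeq had been used for calling. HISAT2, HISAT and DESeq are also the tools of the submitters' processing notes. The sources used here do not give their versions, the genome build or the program that quantified genes. The deposited signal is a normalized expression value whose kind is not named, so no depth or counting precision can be given, and the authors' columns of fold change, FDR and direction were not used. Nothing says how many plants made a replicate.

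Values were compared as log2(value + 0.1) in R 4.3.3 by limma 3.58.1, using a mean-variance trend without a replicate block or a filter on low values. Ratios of means used no pseudocount. Permutation tests used scipy 1.17.1 with Python 3.11.15, and tables pandas 2.3.3 and numpy 2.4.6. The procedure was tested on simulated data in which most genes did not change, unlike in this table. How it behaves on genes selected beforehand by the authors was not tested. None of the gene IDs (0 matches) was found in the RefSeq gene table of lettuce, so no coordinates or sequences are given. Members and gene lists were chosen with earlier results of these data known. Named genes are all members, *LsAP2*, up to 4 called genes per list (2 by fold change and 2 by mean value) and the 3 closest matches. The cyclic Dof factors and the groups within a list were chosen after their values were seen. Alternatives were other pseudocounts, a filter on mean value, no trend, the block, library centring, each library left out, other thresholds and members by NR description.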

Additional observations from a re-analysis of the deposited data

How the results depend on the processing

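Over 13 other fits, no clock gene changed direction, and each of the 9 called genes stayed called wherever it was tested. Nearly all genes of the table were called in these fits as well. In those that tested all 2579 genes, 1434 to 1528 were called higher and 996 to 1026 lower, so that staying called is not particular to the clock genes. The *LUX* gene Lsat_1_v5_gn_8_72921, not called at 0.0113, was called with the replicate block (adjusted p = 0.00354 from limma) and at an adjusted p below 0.05. With the replicate block, 4 clock genes were higher and 6 lower, against 3 and 6 without it. No sign of pairing by number was seen, as deviations of same-numbered libraries had correlations of −0.039 to 0.014 across genes. Whether same-numbered libraries shared a batch is not known. With each library left out, 3 to 4 clock genes were higher and 6 lower. With a filter that kept genes averaging at least 1, 2 were higher, since a *LUX* gene was then not tested. By NR descriptions, 9 of the 10 genes were found, without *RVE8*. Centring all libraries on their median moved every log2 fold change by −0.28. For the log2 ratio of the *LUX* genes, the difference between the groups was −0.74 and reversed with a pseudocount of 1, to 0.026. Depth is unknown, so its limit on the *LUX* genes cannot be given. Without the *PRR1* gene Lsat_1_v5_gn_5_21481, an alternative added after seeing the data, the difference in mean log2 value over the afternoon and evening genes was −0.067, against 0.38 with it.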
